A study of Mus musculus with 12 samples.

Results

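The genes described here are 46 listed genes of the distal part of mouse chromosome 10, from *Ppp1r12a* at 108162193 to *Ctdsp2* at 126999975 of mm10, a span of 18.8 Mb. The span was chosen because its genes had raised values in *Slpi*-overexpressing against mock cells, so that difference is given as a description and was not tested for the members. A gene was kept if any of the 12 libraries reached an FPKM of 1, FPKM being the fragments of a gene scaled to its transcript length and to the library. This kept 45 of the 46 genes, of 24346 genes listed for the cultured cells and 23284 for the sorted osteoblasts. *Cpm* was the kept gene nearest to that limit, with a highest value of 2.10, and *Grip1* was dropped with a highest value of 0.0840. Of the 45, 43 reached the limit in the cultured cells, 42 in the osteoblasts and 40 in both.

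Libraries of 2 experiments were used, 6 in each. MC3T3-E1 cells, a mouse calvarial pre-osteoblast line, carried either the empty retroviral vector (mock, 3 libraries) or the same vector with the mouse *Slpi* cDNA (*Slpi*, 3 libraries). Both were puromycin-selected stable transformants, and RNA was taken from subconfluent cultures. The labels do not say whether replicates came from separate infections, so the spread given below is that between libraries and may be technical. Osteoblasts were the 7AAD-, Lin-, CD45-, ECFP+ cells of female Col2.3-ECFP mice, in which a collagen promoter fragment drives the cyan reporter in osteoblasts. The mice were 12 weeks old and were given vehicle (3 libraries) or PTH(1-34) at 40 µg/kg (3 libraries) on 5 days per week for 3 weeks, and cells were taken 24 h after the last injection. SLPI is a secreted inhibitor of serine proteases, and *Slpi* was 377 to 396 FPKM in mock and 1848 to 2105 FPKM in overexpressing cells, and 1.64 to 2.62 FPKM with vehicle and 19.8 to 37.5 FPKM with PTH. All 8 osteoblast markers were at or above 1 FPKM in every MC3T3-E1 library. The sorted cells also held RNA of other cells, with 7 neutrophil markers summing to 351 to 440 FPKM with vehicle and 649 to 2220 with PTH, and 3 T cell markers summing to 77.1 to 119.4 with vehicle and 0 to 15.2 with PTH. The sums of the erythroid, B cell and endothelial markers overlapped between the groups. PTH replicate 2 stood apart in 3 heart muscle markers, which summed to 1153 there, to 4.95 and 0 in the other PTH libraries and to 5.37 to 8.90 with vehicle. *Col1a1* was listed at 0 in all 3 PTH libraries and in vehicle replicate 3, so an exact 0 in the osteoblast files can be a failed estimate.

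Genes of a chromosomal stretch share a position and not a function. Some of those in this stretch encode subunits of large complexes, and the other subunits of each complex are encoded elsewhere. Among these complexes are the chaperonin that folds actin and tubulin and the nuclear pore. Others are the deadenylase that shortens poly(A) tails and the machinery that cuts the 3′ ends of messenger RNA. Pre-osteoblasts rely on such housekeeping machinery, and on contractile and innate immune signalling genes that also lie here.

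The promoter windows of the kept genes are shown for the pair with the highest *Slpi* to mock ratio among the 43 genes at or above 1 FPKM in MC3T3-E1 cells and the pair with the lowest for which a window was at hand, since genes at both ends of the range sit in the same stretch. Each runs from 250 bases before to 50 bases after the RefSeq start on GRCm38.p6, 5′ to 3′ in the direction of the gene. Capitals mark 5 motifs searched on both strands. The GC box was searched as GGGCGG, the CCAAT box by the letters of its name, the TATA box as TATAAA, the ETS site as CCGGAAG and the NRF1 core as GCATGCGC.
Dyrk2, chr10:118868854-118869153, minus strand: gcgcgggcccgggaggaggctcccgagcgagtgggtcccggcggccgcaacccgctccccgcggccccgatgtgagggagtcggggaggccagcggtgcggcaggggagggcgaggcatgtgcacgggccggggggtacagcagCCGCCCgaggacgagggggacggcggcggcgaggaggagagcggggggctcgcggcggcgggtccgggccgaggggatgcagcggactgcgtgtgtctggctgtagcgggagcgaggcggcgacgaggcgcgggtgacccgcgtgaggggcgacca
Nup107, chr10:117792656-117792955, minus strand: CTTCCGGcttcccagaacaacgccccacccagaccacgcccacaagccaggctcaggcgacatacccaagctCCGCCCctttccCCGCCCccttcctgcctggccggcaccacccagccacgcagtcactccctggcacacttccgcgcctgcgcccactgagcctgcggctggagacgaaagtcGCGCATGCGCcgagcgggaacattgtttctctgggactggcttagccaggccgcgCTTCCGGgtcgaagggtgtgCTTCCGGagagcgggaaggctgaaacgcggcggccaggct
Pawr, chr10:108331939-108332238, plus strand: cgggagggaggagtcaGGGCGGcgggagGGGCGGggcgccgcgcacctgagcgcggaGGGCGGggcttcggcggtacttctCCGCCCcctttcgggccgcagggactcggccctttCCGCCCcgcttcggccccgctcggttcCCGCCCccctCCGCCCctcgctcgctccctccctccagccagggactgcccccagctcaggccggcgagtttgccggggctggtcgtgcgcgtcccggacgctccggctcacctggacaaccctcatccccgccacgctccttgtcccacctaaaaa
Ppp1r12a, chr10:108161848-108162147, plus strand: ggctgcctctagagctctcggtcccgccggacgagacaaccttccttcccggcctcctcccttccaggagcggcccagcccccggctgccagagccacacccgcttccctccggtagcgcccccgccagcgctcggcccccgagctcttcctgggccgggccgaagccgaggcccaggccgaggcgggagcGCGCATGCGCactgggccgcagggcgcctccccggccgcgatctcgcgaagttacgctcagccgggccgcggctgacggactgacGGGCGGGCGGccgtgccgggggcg

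The *Nup107* window holds 3 ETS sites, 2 GC boxes and 2 overlapping matches of the NRF1 core, 1 on each strand, and that of *Dyrk2* holds 1 GC box. Among the windows of the low genes, that of *Pawr* holds 7 GC boxes and that of *Ppp1r12a* 2 overlapping GC boxes and the same pair of NRF1 matches. The 39 members with a window had a median GC content of 68%, against 52.7% over the windows of all 27025 genes. The GC box stood in 84.6% of the members' windows and in 35.9% of all windows, the CCAAT box in 23.1% and 37.9%, and the TATA box in 2.56% and 14.2%. The ETS site stood in 23.1% and 9.12%, in 9 of the 31 windows of members whose *Slpi* values all lay above the mock values and in 0 of the other 8. The other 8 are all remaining members with a window, not only lower ones. They are too few to read a 0 against a share of 9.12%, and the split uses the contrast that chose the stretch. The NRF1 core stood in 12.8% and 2.80%. The windows of all genes were not limited by FPKM, so their shares are not those of expressed genes. These are matches of letters, not binding sites.

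Over the 43 genes at or above the limit in MC3T3-E1 cells, FPKM was higher with *Slpi* in 36, and in each of those 36 every *Slpi* library lay above every mock library. This held for 34.9% of all 11466 tested genes, and a higher mean for 50.6%. Another 5 genes had all *Slpi* values below all mock values, against 32.2% of all tested genes, and *Bbs10* and *Irak3* overlapped. The ratio of mean FPKM had a median of 1.57 and ran from 0.736 for *Pawr* to 2.92 for *Dyrk2*. It reached 1.25 in 34 members, against 16.5% of all tested genes, and 2 in 12 members, against 1.43%. On the log2(FPKM + 1) scale the median difference was 0.62, with quartiles of 0.40 and 0.91, and over all tested genes it was 0.0041. The 3 *Slpi* libraries gave medians of 0.61, 0.62 and 0.63 against the mock mean, with 37, 37 and 36 of the 43 members above it. Each of the 3 mock libraries was set against the mean of the other mock libraries, and its median lay within 0.014 of it. The median SD between libraries, on the same log2 scale, was 0.032 in mock and 0.057 in *Slpi* cells. Since the stretch was picked on this contrast, none of these counts is support for a difference, nor are the gaps between groups given gene by gene below.

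**Figure D1:**
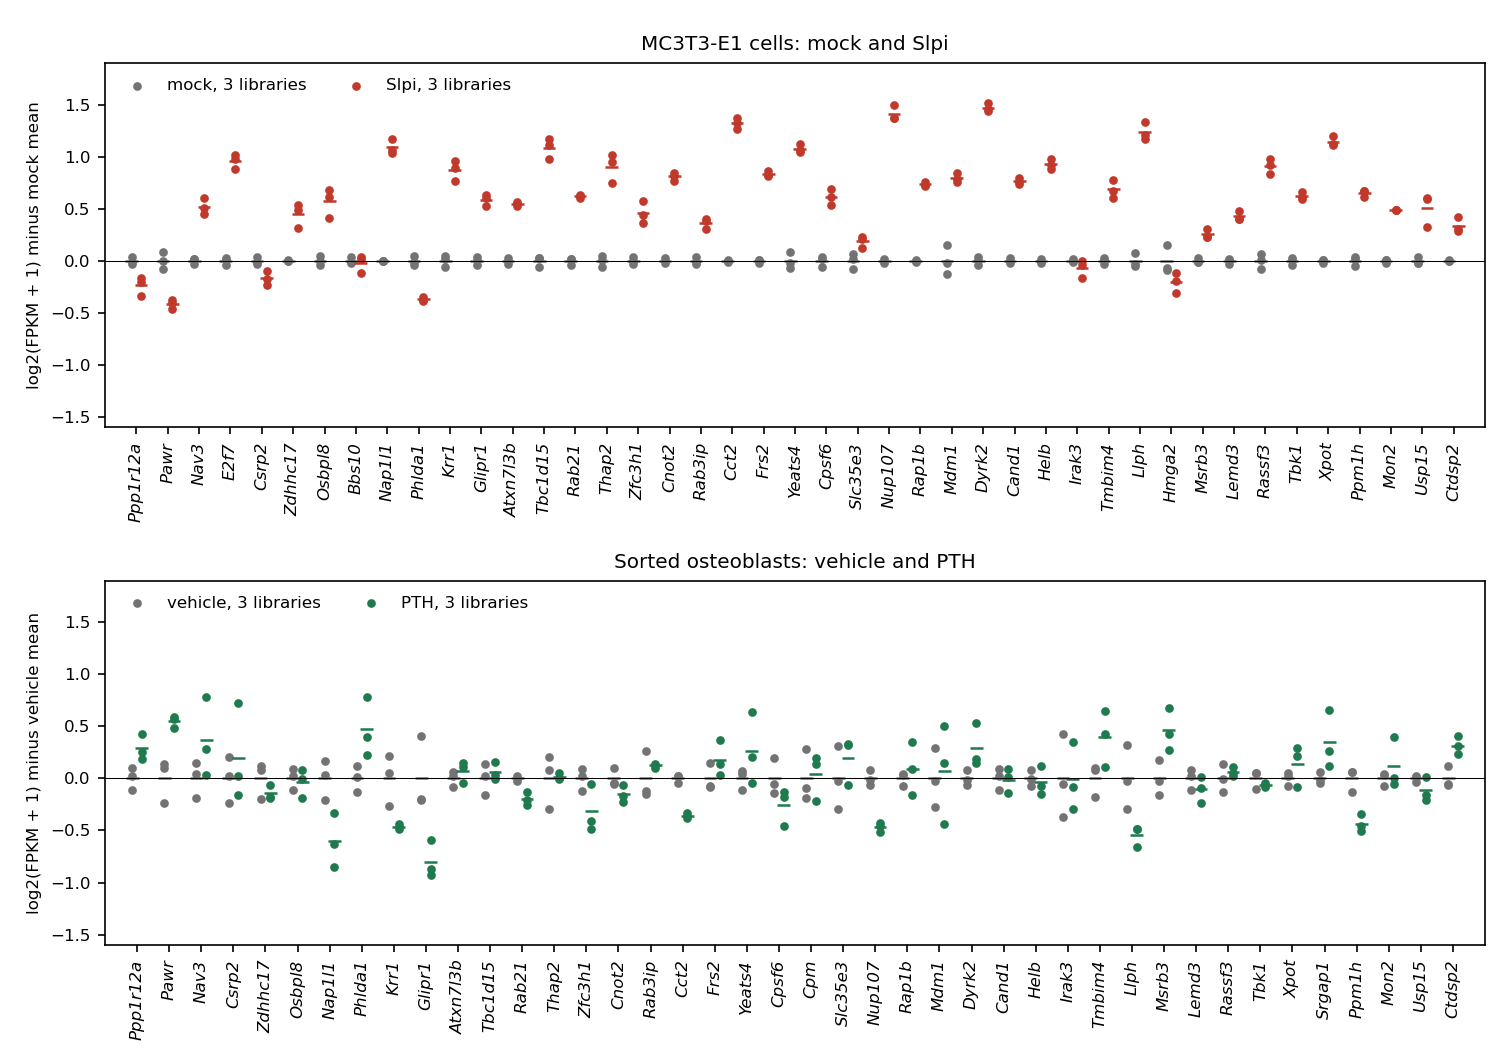
Each point is 1 library, the vertical axis is log2(FPKM + 1) minus the mean of the control group, bars are group means, and genes stand in chromosomal order from Ppp1r12a to Ctdsp2, for the 43 members tested in MC3T3-E1 cells (above) and the 42 tested in sorted osteoblasts (below). In the cultured cells 36 members have all 3 Slpi points above the mock points and 5 have them below, and in the osteoblasts the points of both groups spread more widely and lie on both sides of 0.

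Genes for RNA processing, transport and ribosome assembly were all higher with *Slpi*, 7 of 7, with a median log2 difference of 0.87. *Nup107*, a scaffold subunit of the nuclear pore, had FPKM of 24.8, 24.1 and 24.4 in mock and 65.0, 70.7 and 64.9 in *Slpi* cells, a ratio of 2.74. *Llph* had 38.9, 42.6 and 39.5 in mock and 91.7, 103 and 94.2 in *Slpi* cells. *Xpot*, the exporter of tRNA from the nucleus, had 31.9, 32.0 and 31.4 in mock and 69.8, 74.3 and 70.4 in *Slpi* cells. In these 3 genes the gap between the groups was many times the spread within them. Subunits of the mRNA processing complexes had smaller ratios. *Cnot2*, of the CCR4-NOT deadenylase, was 31.2 ± 0.505 FPKM in mock and 55.5 ± 1.55 FPKM in *Slpi* cells (SD, n = 3). *Cpsf6*, of the 3′ end cleavage machinery, was 13.6 ± 0.496 and 21.3 ± 1.22 (SD, n = 3). The other 2 of the group were *Krr1*, needed to assemble the small ribosomal subunit, with a ratio of 1.91, and *Zfc3h1*, which directs nuclear RNA to the exosome, with a ratio of 1.43.

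Transcription and chromatin genes were higher in 8 of 9, with a median log2 difference of 0.91. *Nap1l1*, a histone chaperone and among the most abundant members, had FPKM of 202 in each mock library and 416, 456 and 425 in *Slpi* cells. *Yeats4*, a reader of acetylated histones, had 22, 24.6 and 22.8 in mock and 51.4, 49.4 and 48.7 in *Slpi* cells. *E2f7*, an E2F family repressor of cell cycle genes, had 6.26, 6.34 and 6 in mock and 12.2, 13.5 and 13.2 in *Slpi* cells. All 3 genes were raised by close to the same factor, with ratios of 2.14, 2.15 and 2.09, in spite of mock levels that differed widely. *Thap2* and the DNA helicase gene *Helb* had ratios of 2.08 and 2.01, while *Atxn7l3b*, *Lemd3* and the phosphatase gene *Ctdsp2* had ratios of 1.47, 1.39 and 1.27. *Hmga2*, which encodes an architectural chromatin protein, went the other way, with 10.6, 10.7 and 12.6 in mock and 8.87, 9.71 and 10.3 in *Slpi* cells, its highest *Slpi* value just under its lowest mock value.

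Among the folding and ubiquitin genes, *Cct2* stood out. It encodes a subunit of the chaperonin CCT, was the most abundant member in these cells, and had FPKM of 226, 228 and 224 in mock and 568, 587 and 543 in *Slpi* cells, a ratio of 2.51. *Cand1*, an exchange factor of cullin ubiquitin ligases, had 33.8, 33.4 and 34.5 in mock and 57.9, 59.6 and 57.3 in *Slpi* cells. Both genes were separated by far more than the spread of their libraries. The deubiquitinase gene *Usp15* had 6.17, 6.17 and 6.43 in mock and 8.06, 9.92 and 10.1 in *Slpi* cells, with *Slpi* replicate 1 below the other two. *Bbs10*, related to the chaperonins, was 2.34 ± 0.0749 and 2.29 ± 0.188 (SD, n = 3), and its groups overlapped.

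All 8 genes of membrane traffic and lipids were higher, with a median log2 difference of 0.53. *Tbc1d15*, which encodes a GTPase-activating protein for Rab proteins, was the furthest apart, with FPKM of 20.9, 19.7 and 21 in mock and 41.4, 47.3 and 45.4 in *Slpi* cells. The small GTPase gene *Rab21* had 38.2, 39.8 and 39.8 in mock and 60.2, 61.0 and 61.4 in *Slpi* cells. *Slc35e3*, of the nucleotide sugar transporter family, was the least changed of the group, with 20.9, 18.7 and 20.1 in mock and 23.5, 21.8 and 23.1 in *Slpi* cells. Its groups were parted by less than the range within mock. The other 5, *Tmbim4*, *Osbpl8*, *Mon2*, *Zdhhc17* and *Rab3ip*, had ratios of 1.62, 1.55, 1.42, 1.41 and 1.34.

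The signalling genes held both ends of the range. *Dyrk2*, a protein kinase gene with roles in the cell cycle and apoptosis, had FPKM of 11.7, 12.3 and 12.1 in mock and 34.4, 36.4 and 34.7 in *Slpi* cells. *Rassf3* had 6.78, 6.04 and 6.46 in mock and 13, 13.7 and 12.3 in *Slpi* cells. *Frs2*, the adaptor of FGF receptors, had 17.2, 17.1 and 16.8 in mock and 30.9, 31.8 and 30.8 in *Slpi* cells. These 3 genes and *Tbk1*, a kinase of innate immune signalling with a ratio of 1.57, kept their groups far apart, as did the phosphatase gene *Ppm1h* at low levels, with 1.95 ± 0.0924 and 3.63 ± 0.112 (SD, n = 3). *Pawr*, a pro-apoptotic regulator, had 19.3, 17.1 and 18.1 in mock and 13.8, 13.5 and 12.9 in *Slpi* cells. *Phlda1* had 24.7, 23.3 and 23.8 in mock and 18.7, 18.0 and 18.3 in *Slpi* cells. Both were lower in every *Slpi* library. *Irak3*, an inhibitor of Toll-like receptor signalling, had 8.36, 8.43 and 8.59 in mock and 8.20, 7.44 and 8.44 in *Slpi* cells, so that the groups overlapped.

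Of the contractility and cytoskeleton genes 3 of 5 were higher. *Rap1b*, a small GTPase gene of integrin signalling, had FPKM of 75.7, 75.4 and 74.8 in mock and 125, 128 and 125 in *Slpi* cells. *Ppp1r12a*, the targeting subunit of myosin phosphatase, had 22.8, 23.1 and 23.8 in mock and 18.2, 20 and 20.7 in *Slpi* cells. *Csrp2*, a LIM domain protein gene, had 162, 156 and 158 in mock and 149, 135 and 140.1 in *Slpi* cells. The latter pair was lower in every *Slpi* library, *Rap1b* was higher in each, and *Mdm1* and *Nav3* had ratios of 1.86 and 1.58. *Srgap1* was at most 0.101 FPKM in these cells and was not tested. Of the remaining members, *Glipr1* and *Msrb3*, a methionine sulfoxide reductase gene, had ratios of 1.5 and 1.2, and *Cpm*, the carboxypeptidase M gene, was at most 0.0490.

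Of the 5 members whose *Slpi* values all lay below the mock values, 4 were among the first 10 of the 43, *Ppp1r12a* and *Pawr* at the start of the stretch and *Csrp2* and *Phlda1* 2.76 and 3.34 Mb from it. *Hmga2* started 12.2 Mb from it, and the latter 3 each had members with higher values in *Slpi* cells on both sides. Across the 43 genes, the log2 difference had a Pearson's r of 0.11 and a Spearman's correlation of 0.12 with the mock level, both computed from the same libraries, so the size of the difference followed the level of expression little. Exons of 7 members overlap those of another listed gene, among them *Krr1* with *Glipr1* and *Irak3* with *Tmbim4* on opposite strands, and the sources used here do not say whether strand was used in the counting. The reads of such pairs may have been shared. For *Llph* there are 2 annotated pseudogenes that carry its name, and its value may hold reads of these copies. Pseudogenes under other names were not searched, so other members may have copies too.

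The position of the rise was described with all tested genes of chromosome 10. The 447 genes before *Ppp1r12a* had a median log2 difference of -0.035. The 15 other genes within the stretch, which are not members, had a median of 0.43, with 12 higher, against 50.6% of all tested genes. All *Slpi* values lay above all mock values in 9 of these 15, against 34.9%, and below in 0, against 32.2%. The choice of the stretch on this contrast covers these 15 too, so their counts are a description and no support. The 64 genes after *Ctdsp2* had a median of 0.16. In steps of 5 Mb from the start of *Ppp1r12a* the median was 0.52, 0.74 and 0.56 in the first 3 and 0.33 in the next, which runs past *Ctdsp2*, and -0.0028 in the last. In the 5 Mb before *Ppp1r12a* there were only 4 tested genes, with a median of 0.29. Among them, *Slc6a15* had FPKM of 0.042, 0.105 and 0.034 in mock and 0.882, 1.135 and 1.001 in *Slpi* cells. It reached the limit only in *Slpi* libraries, so it could only enter as higher. Over the whole of chromosome 10 the median was -0.00069. Those of the other 19 whole chromosomes lay between -0.10 on chromosome 19 and 0.091 on chromosome 11. No steps of 5 Mb were computed on these other chromosomes.

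The edges were thus not sharp. Just before the stretch, *Ccdc59* had FPKM of 28.1, 29.3 and 30.7 in mock and 37.2, 36.6 and 37.5 in *Slpi* cells, but the nearer *Acss3* had 7.72, 6.91 and 6.75 in mock and 4.22, 4.06 and 4.86 in *Slpi* cells. Just after it, *Mettl1*, a tRNA methyltransferase gene, had 29.9, 31.5 and 28.5 in mock and 47.5, 55.9 and 52.4 in *Slpi* cells. The neighbours after *Ctdsp2* that lay nearest, *Avil*, *Tsfm*, *Mettl21b* and *Mettl1*, had ratios of 5.26, 1.56, 1.58 and 1.73. Each had all *Slpi* values above all mock values, as had 34.9% of all tested genes. *Avil* had only 0.503, 0.471 and 0.582 FPKM in mock, so its ratio rests on low values, and it reached the limit only in *Slpi* cells. The positions of *Avil* and *Tsfm* overlap, as do those of *Mettl21b* and *Mettl1*, and their reads may have been shared.

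**Figure D2:**
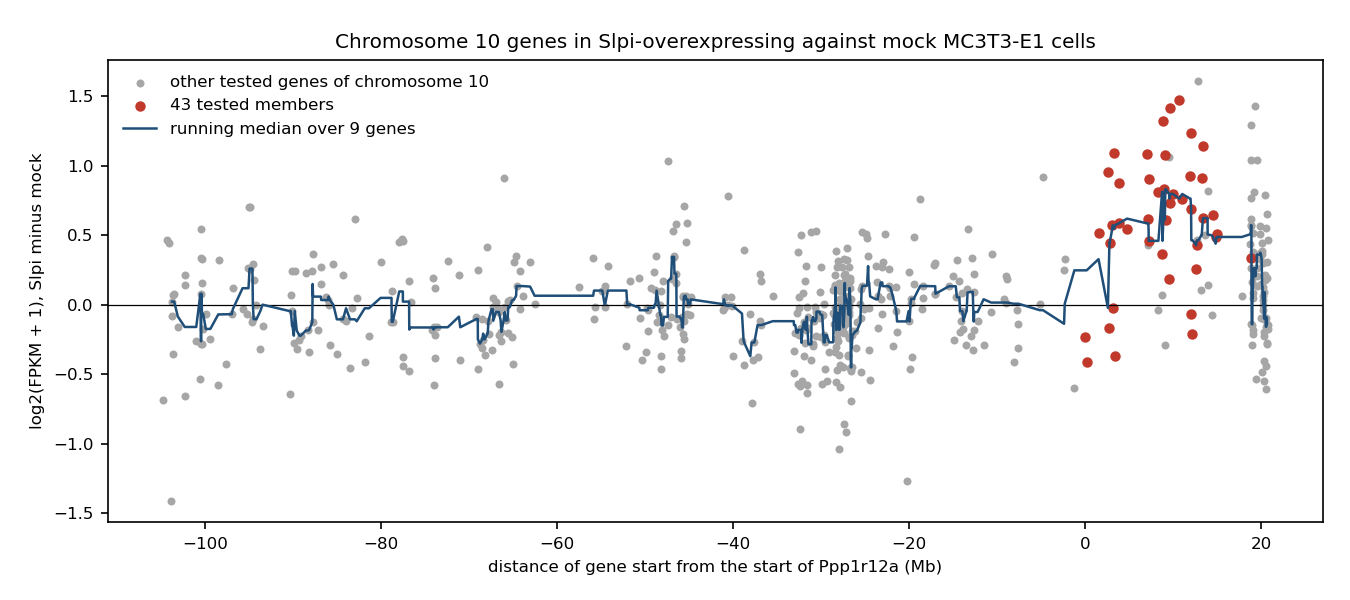
Each point is 1 tested gene of chromosome 10, placed by the distance in Mb of its start from the start of Ppp1r12a, with the Slpi minus mock difference in log2(FPKM + 1) on the vertical axis; red points are the 43 tested members and the line is a running median over 9 genes. Before the stretch the line runs between -0.45 and 0.34, with quartiles of -0.15 and 0.039, and within it the quartiles are 0.46 and 0.62.

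PTH against vehicle in the sorted osteoblasts served as a control comparison, which had no part in choosing the genes. The 42 tested members had a median log2 difference of 0.050, against 0.0066 over all 13004 tested genes, and 23 of 42 were higher, against 50.6%. The members' medians in single libraries were -0.028, -0.030 and 0.082 with vehicle and 0.083, -0.050 and -0.022 with PTH, so the groups overlapped. Each PTH library was set against the vehicle mean. Each vehicle library was set against the other vehicle libraries, which makes its deviation larger. All 3 PTH values lay above all vehicle values in 8 members, against 19.5% of all tested genes, and below in 9, against 20.9%. The ratio of mean FPKM reached 1.25 in 6 members, against 27% of all tested genes. In limma with Benjamini-Hochberg adjustment over all tested genes, 1 member rose, against 6.38% of all tested genes, and 4 fell, against 8.85%. A rise of the whole stretch like that in the *Slpi* cells was thus not seen here. At an unadjusted p under 0.05 there were 6 higher and 7 lower members of 42, against 16% and 17.5% of all tested genes.

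The members that passed were few and near the threshold. *Cct2* had FPKM of 125, 125 and 119.7 with vehicle and 97.9, 94.5 and 95.5 with PTH (log2 difference -0.36, standard error 0.0803, limma adjusted *p* = 0.0328). *Nup107* had 10.5, 10.8 and 11.6 with vehicle and 7.90, 7.35 and 7.73 with PTH (log2 difference -0.47, standard error 0.105, limma adjusted *p* = 0.0331). Both were lower in every PTH library, where in *Slpi* cells they were among the most raised. *Nap1l1* had 123, 135 and 104 with vehicle and 76.9, 95.2 and 66.1 with PTH (log2 difference -0.60, standard error 0.160, limma adjusted *p* = 0.0476). *Glipr1* had 10.8, 17.1 and 10.8 with vehicle and 8.01, 6.43 and 6.13 with PTH (log2 difference -0.80, standard error 0.198, limma adjusted *p* = 0.0407). *Pawr* had 2.61, 3.68 and 3.53 with vehicle and 4.92, 5.39 and 5.30 with PTH (log2 difference 0.55, standard error 0.147, limma adjusted *p* = 0.0488). It was thus higher in every PTH library and lower in every *Slpi* library. Without single libraries 0 members were higher and 0 or 1 lower, with 0 in either direction when vehicle replicate 1 or 2, or PTH replicate 1 or 3, was left out. Over all genes, 1 higher and 0 lower were left without vehicle replicate 1, and 0 and 0 without vehicle replicate 2. There were 172 and 405 without PTH replicate 1, and 585 and 790 without PTH replicate 3. Neutrophil markers were higher and T cell markers lower in every PTH library, and PTH replicate 2 alone held the heart muscle RNA, by the sums given above. Without that library 0 members were higher and 1 lower, against 674 and 895 over all 12768 genes tested. The part of these other cells in the values was not tested, nor can fewer cells of a type be told apart from less RNA per cell.

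By role, the 7 RNA genes had a median log2 difference of -0.32 with PTH. The 2 of them furthest down beside *Nup107* did not pass, *Llph* with 21, 26.9 and 17.3 with vehicle and 15, 13.2 and 15 with PTH (limma adjusted *p* = 0.0675) and *Krr1* with 6.53 ± 1.26 and 4.41 ± 0.0868 (SD, n = 3, limma adjusted *p* = 0.0833). In both, no PTH value reached the vehicle values. The 6 contractility genes had a median of 0.24, and of them *Ppp1r12a* had 18.1, 16.4 and 19.1 with vehicle and 21.4, 20.3 and 24.3 with PTH (limma adjusted *p* = 0.128). *Srgap1*, a GTPase-activating protein gene of Slit and Robo signalling that was near 0 in MC3T3-E1 cells, was 4.33 ± 0.205 and 5.86 ± 1.39 (SD, n = 3) in osteoblasts. *Dyrk2* had 14.4, 15.4 and 13.9 with vehicle and 16.7, 16.3 and 21.5 with PTH (limma adjusted *p* = 0.173).

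Over the 40 members tested in both experiments, the mean FPKM in mock and in vehicle had a Pearson's r of 0.76 and a Spearman's correlation of 0.75 on the log2(FPKM + 1) scale. The differences in the 2 experiments, which share no library, had an r of -0.45 and a Spearman's correlation of -0.40 across these genes, which are not independent. The *Slpi* difference had chosen these genes, and the same correlation over all tested genes was not computed. It is thus a description and not shown to be particular to this stretch. *Nup107*, *Cct2*, *Llph* and *Nap1l1* lay high with *Slpi* and low with PTH, and *Pawr*, *Phlda1* and *Ppp1r12a* the reverse. *Csrp2*, lower with *Slpi*, overlapped in the osteoblasts, with 19.5, 23.6 and 26.9 with vehicle and 23.6, 38.8 and 20.6 with PTH (limma adjusted *p* = 0.589). Its highest value was that of PTH replicate 2, the library with heart muscle RNA. *Dyrk2*, *Yeats4* and *Xpot* were higher in mean in both.

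**Figure D3:**
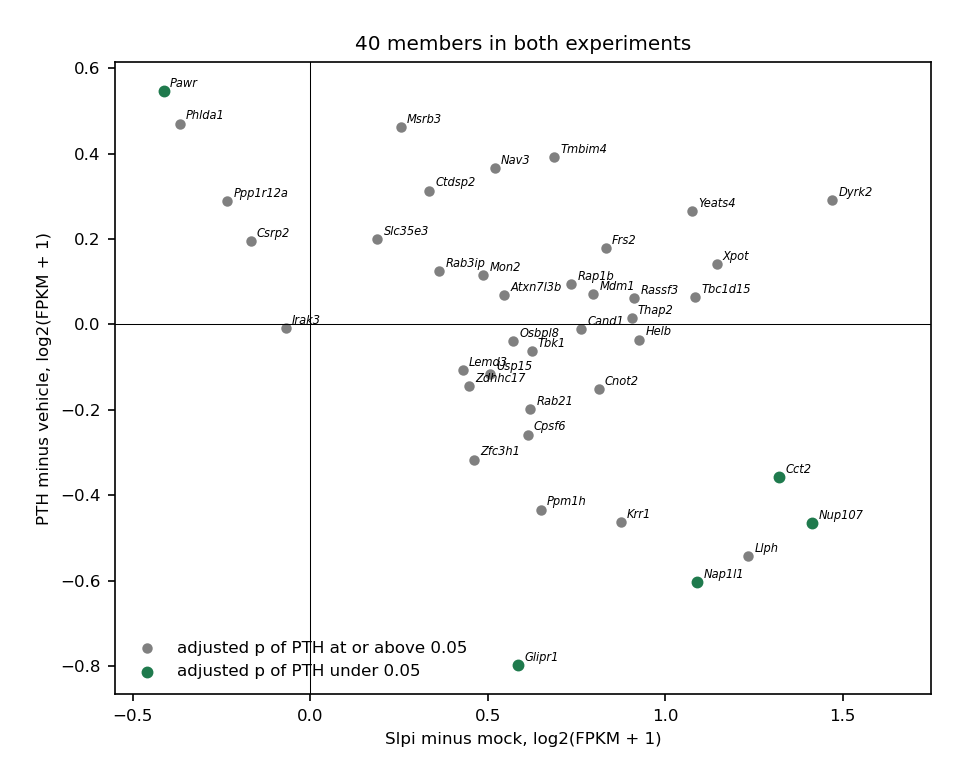
Each point is 1 of the 40 members tested in both experiments, with Slpi minus mock on the horizontal and PTH minus vehicle on the vertical axis, both in log2(FPKM + 1); green points passed an adjusted p under 0.05 for PTH. Most points lie to the right of 0 and on both sides of 0 vertically, and the 4 green points that fell with PTH lie to the right while Pawr lies at the upper left.

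Several members act in complexes or pathways, so the other genes of 6 such groups, and paralogs of members, all encoded outside the stretch, were examined in the *Slpi* cells. Of 76 tested genes, 39 rose and 14 fell in limma with adjustment over all genes, against 31.9% and 28.9% of all tested genes, with a median log2 difference of 0.13. Dividing each library by its sum of FPKM gave 26 risen and 16 fallen, and the median was then 0.046. This scaling moved the split over all genes from 3658 higher and 3315 lower to 2430 higher and 4438 lower. No gene of these lists reached a ratio of 2, which 1.43% of all tested genes did. Among the members 12 did, but these lie in a stretch chosen for raised values.

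All 7 other CCT subunits rose, by a median log2 difference of 0.40, where *Cct2* itself differed by 1.32. *Tcp1* was 141 ± 3.35 in mock and 198 ± 4.04 in *Slpi* cells (SD, n = 3, log2 difference 0.49, limma adjusted *p* = 9.47e-06). *Cct4* was 150.3 ± 0.537 and 205 ± 6.39 (SD, n = 3, log2 difference 0.45, limma adjusted *p* = 1.42e-05). Each of the 7 differences lay below that of *Cct2*, a gene of the stretch chosen for raised values. All 9 partners of *Nup107* rose, by a median of 0.39, or 7 of 9 after scaling to the sum of FPKM. *Nup85* was 43.6 ± 1.08 and 70.0 ± 3.72 (SD, n = 3, log2 difference 0.67, limma adjusted *p* = 9.11e-06), *Sec13* had a log2 difference of 0.37 and *Seh1l* of 0.45, against 1.41 for *Nup107*. Another 2 of these partners, *Nup37* and *Nup43*, also lie on chromosome 10, before the stretch.

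Of the 10 CCR4-NOT genes 6 rose and 0 fell, with a median of 0.25. *Cnot1*, the scaffold of the complex, was 29.5 ± 0.537 and 40.1 ± 1.08 (SD, n = 3, limma adjusted *p* = 2.62e-05), while *Cnot10* was 16.4 ± 0.222 and 16.4 ± 0.131 (SD, n = 3, limma adjusted *p* = 0.943). *Rqcd1* and *Cnot6* also rose, with log2 differences of 0.45 and 0.38. The differences within this list were thus uneven. Of the 8 genes of 3′ end cleavage 6 rose and 0 fell, with a median of 0.23, among them *Nudt21*, the partner of *Cpsf6* in cleavage factor I, with a log2 difference of 0.37 (limma adjusted *p* = 4.41e-05), *Cpsf2* with 0.44 and *Fip1l1* with 0.29. Of the 7 genes for cullins and *Rbx1*, 3 rose and 0 fell, with a median of 0.11, and after scaling to the sum of FPKM 0 rose. *Cul2*, *Cul4a* and *Cul1* had log2 differences of 0.20, 0.13 and 0.11, and the adjusted *p* of *Cul1* was 0.0471 in limma.

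Of 13 innate immune genes 2 rose and 6 fell, against 31.9% and 28.9% of all tested genes, with a median of -0.0091. Among the fallen, *Irak2*, *Ikbke* and *Irf3* had log2 differences of -0.62, -0.49 and -0.36. *Ikbke*, the kinase most like *Tbk1*, was 6.68 ± 0.436 and 4.47 ± 0.493 (SD, n = 3, limma adjusted *p* = 0.000633), where *Tbk1* differed by 0.62. After scaling to the sum of FPKM, 0 innate immune genes rose and 6 fell.

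Paralogs of members went both ways. Of 22 tested, 6 rose and 8 fell, against 31.9% and 28.9% of all tested genes, with a median of -0.086. After scaling to the sum of FPKM 3 rose and 10 fell, against 2430 and 4438 of all 11466 tested genes. The counts are thus no result about paralogs as a set. *Csrp1* fell as *Csrp2* was lower, from 221 ± 2.79 to 141 ± 7.30 (SD, n = 3, log2 difference -0.65, limma adjusted *p* = 7.71e-06). *Usp11* fell by 0.63 and *Rab3il1* fell by 0.88 on the log2 scale, while their relatives *Usp15* and *Rab3ip* were higher. *E2f8*, the closest relative of *E2f7*, rose by 0.51, and *Nap1l4* rose by 0.22, against 0.96 and 1.09 for *E2f7* and *Nap1l1*. *Rap1a*, the relative of *Rap1b*, did not pass, with a log2 difference of 0.14 (limma adjusted *p* = 0.0799).

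**Figure D4:**
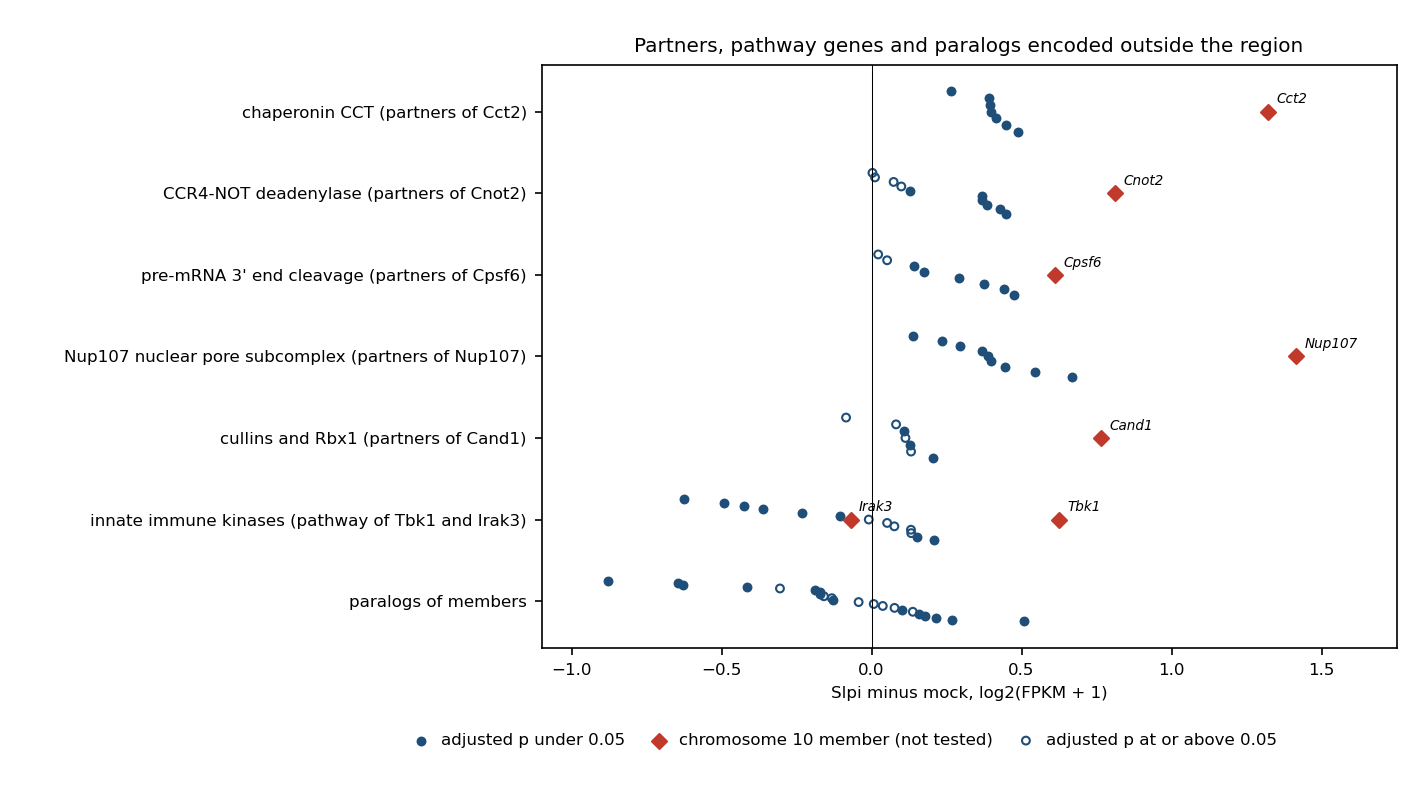
Each blue point is a tested gene encoded outside the stretch, placed by its Slpi minus mock difference in log2(FPKM + 1) and grouped by list; filled points passed an adjusted p under 0.05 and red diamonds are the chromosome 10 members of the same complex or pathway, which were not tested. In the 5 complex lists at the top the member, of a stretch chosen for raised values, lies to the right of all its partners.

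With PTH the same lists held few calls. Of 76 tested, 1 rose and 11 fell in limma with adjustment over all genes, against 6.38% and 8.85% of all tested genes. There were 3 of 7 CCT genes and 3 of 9 partners of *Nup107* among the fallen, with median log2 differences of -0.32 and -0.37. *Tcp1* fell by 0.68 and *Nup85* fell by 0.60 on the log2 scale, with limma adjusted *p* values of 0.0193 and 0.0499. The mean was lower with PTH for 7 of 7 CCT genes and 7 of 9 partners of *Nup107*, while *Sec13* and *Ahctf1* had log2 differences of 0.38 and 0.020. Without PTH replicate 2 the lists held 2 risen and 9 fallen genes, and without PTH replicate 1 or 3 they held 4 and 5 fallen genes. Without vehicle replicate 1 or 2 they held 0 in either direction. Over all genes, 1 passed without vehicle replicate 1 and 0 without vehicle replicate 2. The neutrophil and T cell markers, whose sums are given above, moved with these groups too, and their part in this was not tested.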

How the data were processed

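RNA-Seq values of 12 libraries were used, 3 per group. The values, as the authors deposited them, are FPKM per gene in 1 file per library. Per the submitters' processing notes, the build was mm10 and the tools were TopHat2 v. 2.0.13, Bowtie2 v. 2.2.3, SAMtools v. 0.1.19 and Cufflinks v. 2.2.1. The gene annotation, and whether the counting used strand, are not given in the sources used here. The labels name a stranded kit for the MC3T3-E1 libraries, whereas the paper's methods name SMART-Seq v4. FPKM hold no number of reads, so absolute depth is unknown and no counting intervals can be given. The smallest steps between low values gave relative depths of 0.869 to 1 in MC3T3-E1 cells and 0.788 to 1.40 in osteoblasts, and FPKM summed to 541932 to 599746 and 400839 to 462460 per library.

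Each experiment was fitted separately, 3 libraries against 3, on log2(FPKM + 1), which understates changes of low genes, for the 11466 and 13004 genes that reached an FPKM of 1 in any of the 6 libraries. Linear models were fitted in limma 3.58.1 under R 4.3.3 (eBayes with a trend) with Benjamini-Hochberg adjustment over all tested genes and a threshold of 0.05. For the members, *Slpi* against mock was not tested, since it chose them. A two-sided exact permutation test of 3 against 3 cannot give a *p* below 0.1. On simulated data with 100 genes changed by each factor, the model recovered 98 of those changed 2-fold in the MC3T3-E1 design of 11466 genes and 61 in the osteoblast design of 13004 genes, with 6 and 12 false calls. Positions came from GENCODE M21 and RefSeq GRCm38.p6, and promoter windows from RefSeq GRCm38.p6, found for 39 of the 46 members. The tables were made with Python 3.11.15 and pandas 2.3.3.

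The members, the partner, pathway and paralog lists and the cell type markers were chosen with earlier results of these data known, so no count over them is independent support. Genes were named by rule: the members at the edges and extremes of the range, those in the partner complexes, those passing with PTH, and the 3 genes of each list with the smallest *p*. Other genes named were chosen after their values were seen, among them *Cnot10*, *Ahctf1*, *E2f8*, *Nap1l4* and *Rap1a*. Alternatives were other scalings, pseudocounts, filters, a replicate block, other variance models and leaving out each library. Some genes of the stretch, and 1 of the lists, are not reported here.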

Additional observations from a re-analysis of the deposited data

How the results depend on the processing

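The number of members higher with *Slpi* was 36 of 43 and stayed between 36 and 38 under every alternative run. Their median log2 difference of 0.62 was 0.54 after dividing each library by its sum of FPKM, 0.59 after quantile normalization, 0.64 with a pseudocount of 0.1 and 0.60 with no filter, and 0.60 to 0.64 without single libraries. The PTH calls were fragile. The 1 higher member became 0 after dividing by the sum, with a pseudocount of 0.1, with no filter, without the trend and in an unmoderated linear model, and 0 to 0 without single libraries. The 4 lower members became 0 with no filter and in the unmoderated model, 1 without the trend, and 0 to 1 without single libraries. Over all genes the calls fell too, from 830 higher and 1151 lower. There were 529 and 1149 after dividing by the sum and 735 and 956 with a pseudocount of 0.1. With no filter there were 10 and 8 of 23284, without the trend 593 and 970, and in the unmoderated model 0 and 1. Leaving out vehicle replicate 1 left 1 higher and 0 lower over all genes, and vehicle replicate 2 left 0 and 0. Leaving out the other libraries left 172 to 674 higher and 405 to 895 lower. The members' PTH median of 0.050 was -0.0038 without vehicle replicate 1, and between -0.0038 and 0.062 without single libraries. The deviations of same-numbered libraries had correlations of -0.052 to 0.039 in MC3T3-E1 cells, where different numbers gave -0.099 to 0.105. In osteoblasts same numbers gave 0.029 to 0.10 and different numbers -0.12 to 0.069. Whether same-numbered osteoblast libraries share more than a number was thus not settled. With the replicate block 3 members were higher and 3 lower with PTH, against 1028 and 1234 of all 13004 tested genes. *Glipr1* and *Pawr* then had limma adjusted *p* values of 0.0502 and 0.0510. With PTH the partner and paralog lists' 1 higher and 11 lower genes, under alternatives added after seeing the data, became 0 and 0 with no filter and in the unmoderated model, 7 lower without the trend, and 0 to 2 higher and 0 to 9 lower without single libraries. With the block and *Slpi* these lists held 38 higher and 15 lower genes.

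For the partner and paralog lists, dividing by the sum gave 26 higher genes and a median of 0.046 in place of 39 and 0.13. *Cul1* passed narrowly and was lost in most alternatives. The median of chromosome 10 before the first member, -0.035, was -0.13 after dividing by the sum, -0.045 with median ratios, -0.044 with quantile normalization, 0 with no filter and -0.043 to -0.029 without single libraries. That of other genes within the stretch, 0.43, was 0.35, 0.40 with quantile normalization, 0 with no filter and 0.35 to 0.45 without single libraries. That of genes after the last member, 0.16, was 0.077 after dividing by the sum, 0.15 with median ratios, 0.17 with a pseudocount of 0.1, 0 with no filter, 0.18 with a mean FPKM of at least 1, and 0.14 to 0.19 without single libraries. No filter admits many genes at 0. The cause of the other changes was not tested.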

Other observations

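Of the members, 5 reached the limit of 1 FPKM in 1 experiment only. *Hmga2*, an architectural chromatin gene of growing cells, was 11.3 ± 1.17 FPKM in mock cells and 0.597 ± 0.0358 in vehicle-treated osteoblasts (SD, n = 3). *E2f7* was 6.20 ± 0.180 and 0.435 ± 0.166 (SD, n = 3), and *Bbs10* 2.34 ± 0.0749 and 0.292 ± 0.176 (SD, n = 3). *Srgap1* and *Cpm* were at most 0.101 and 0.0490 in MC3T3-E1 cells, and 4.17 to 7.43 and 1.19 to 2.10 in the osteoblast libraries. Among genes above the limit in both, *Glipr1* was 165 ± 4.67 in mock cells and 12.9 ± 3.62 with vehicle (SD, n = 3). The experiments were normalized separately and the osteoblasts held RNA of other cells, so these levels are given side by side and were not compared by a test.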
